A study of Sus scrofa with 4 samples.

Results

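Integrins and cadherins are the receptors by which ovarian granulosa cells hold to their matrix and to each other. They were taken as every row of the deposited count table whose symbol names a numbered integrin alpha chain or the alpha V chain, a beta chain other than the leukocyte chain ITGB2, or a numbered cadherin other than the endothelial CDH5. The rule gave 40 of 29884 genes, 19 integrins and 21 cadherins. Granulosa cells, which form the inner wall of the follicle around the oocyte, were taken from antral follicles of pigs (Sus scrofa), and flow cytometry of part of the cells gave the share in G0/G1, the part of the cell cycle before DNA synthesis. RNA sequencing of the remaining cells gave 2 libraries for the high G0/G1 distribution and 2 for the low one. The labels name no treatment, genotype, breed or age, and set the groups apart by phase distribution alone. Nothing in them ties the libraries of a group to different animals, so the spread behind each p-value may not be that between animals.

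An integrin is a pair of 1 alpha and 1 beta chain that spans the membrane, binds matrix proteins outside and is linked to actin inside through talin and kindlin. The alpha chain largely sets the ligand, and granulosa cells lie on a basal lamina built of laminins, type IV collagen and nidogens. Cadherins bind the same cadherin on the next cell in the presence of calcium, and their tails hold beta-catenin or plakoglobin, which connect to actin through alpha-catenin. N-cadherin, the product of CDH2, and E-cadherin, of CDH1, are the classical cadherins most often described in granulosa cells.

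Library totals were 30399863 and 28701688 counts for the high replicates 1 and 2, and 32674921 and 27442850 for the low replicates 1 and 2. All 8 granulosa markers examined had 10 or more counts in each library, among them FSHR, FOXL2 and INHA. Levels below are CPM, counts relative to library size after TMM scaling. They are not corrected for transcript length, so they are compared between libraries for 1 gene and not between genes. The granulosa markers were not level between groups. The high libraries were the upper pair in 3 of the 8 and the lower pair in 5, against 26.8% and 29.8% of all genes tested. FSHR had 22.5 and 26.0 CPM in high and 81.6 and 85.9 CPM in low, and INHA had 10576 and 8002 CPM in high and 7749.6 and 6705 CPM in low. Their part in the values of the receptors was not tested. In bulk RNA a smaller number of cells of a type and less RNA per cell cannot be told apart. A list of 12 proliferation genes lay lower in both high libraries for 12 of 12 members, against 29.8% of all genes tested. It summed to 1067 and 251 CPM in high against 2799.8 and 2499.5 CPM in low. That list follows from how the groups were made, and its part in the values of the receptors was not tested.

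Of the 40 genes 18 reached 10 counts in every library and 7 reached it in none. The 18 were ITGA1, ITGA2, ITGA3, ITGA4, ITGA5, ITGA6, ITGA7, ITGA10, ITGAV, ITGB1, ITGB5, ITGB8, CDH1, CDH2, CDH6, CDH11, CDH23 and CDH24. By library, 25 and 26 genes reached 10 counts in the high replicates 1 and 2, and 26 and 29 in the low replicates 1 and 2. The 7 below 10 counts throughout were all cadherins, namely CDH7, CDH10, CDH12, CDH15, CDH16, CDH17 and CDH19. CDH7 and CDH19, type II cadherins, and CDH17, a cadherin of intestinal epithelium, had a count of 0 in every library, which allows up to 0.0941 to 0.105 CPM on the same scaled library sizes.

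The other 15 genes were detected in some libraries. ITGA8 and ITGA11 reached 10 counts in low replicate 2, ITGB6 in high replicate 2 and CDH8 in low replicate 1, each in that library alone. CDH13 did so in both high libraries, CDH4 in both low libraries and CDH20 in high replicate 1 and low replicate 2. The remaining 8 missed it in a single library each. That library was high replicate 1 for ITGB3, CDH3 and CDH22, high replicate 2 for ITGB7 and CDH18, low replicate 1 for ITGA9 and ITGB4, and low replicate 2 for CDH9.

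**Figure D1:**
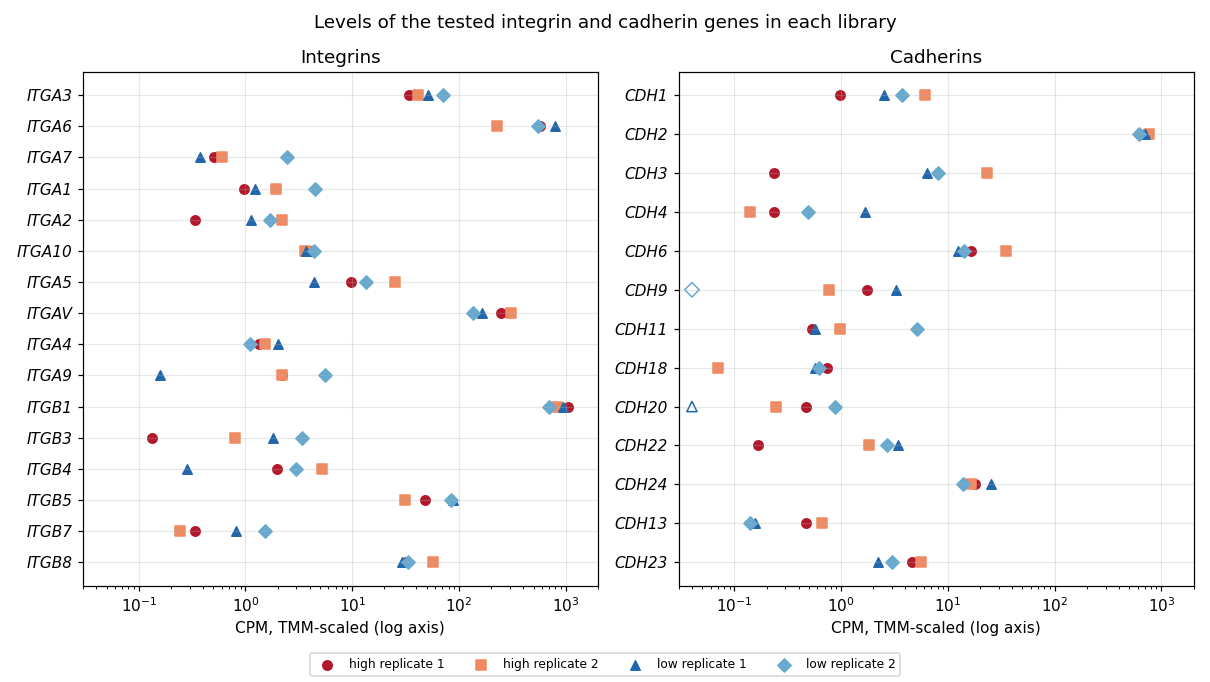
CPM on a log axis for the 29 integrin and cadherin genes that passed the low-count filter, with 1 marker per library; an open marker at the left edge stands for a count of 0. ITGAV and ITGB5 separate the high from the low libraries, CDH2 and ITGB1 lie close together in all 4, and CDH3 spreads from 0.235 to 23.0 CPM within the high group.

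The filter on low counts left 29 of the 40 genes, and edgeR's quasi-likelihood test called none of them at an adjusted p under 0.05, with 0 higher and 0 lower in high than in low G0/G1 cells. The background was the same, 0% of the 14352 genes tested in either direction, so none of the differences described here passed that test. At an unadjusted p under 0.05 there were 7 of the 29, 2 higher and 5 lower, where the whole table had 20.7% in all, 9.92% higher and 10.8% lower. The 2 were ITGAV and CDH13, and the 5 were ITGA3, ITGB3, ITGB5, ITGB7 and CDH4. DESeq2 gave 27 of these genes an adjusted p and called 1 higher, ITGAV, and 1 lower, ITGB5. Of all 13837 genes with an adjusted p it called 5.45% higher and 5.14% lower, together 10.6%. ITGB7, CDH4 and CDH13 passed the filter through the libraries of a single group, so a difference between groups was built into their being tested.

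DESeq2's calls depended on the libraries used. The shares of all genes below are over genes that had an adjusted p in the same fit. Some of the 40 genes had none, so the member counts do not have 40 as a like base. Leaving out high replicate 1 it called 3 of the 40 genes higher and 2 lower, against 7.02% and 9.34% of all genes. Leaving out high replicate 2 it called 0 higher and 3 lower, against 2.91% and 3.59%. The calls were 0 and 0 without low replicate 1, against 2.24% and 0.879%, and 1 and 0 without low replicate 2, against 1.51% and 1.11%.

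The groups did not overlap in 10 of the 29 genes, against 56.6% of all genes tested. In 4 the high libraries were the upper pair and in 6 the lower pair, where the background was 26.8% and 29.8%. The 4 were ITGAV, CDH6, CDH13 and CDH23, and the 6 were ITGA3, ITGB3, ITGB5, ITGB7, CDH4 and CDH22. For CDH13, ITGB7 and CDH4 the separation was favoured in advance, because each passed the filter through a single group. The median log2 fold change, high minus low, was -0.19 over the 29 genes and -0.01 over all genes tested. Its sign turned without low replicate 2, where 17 of the 29 were higher and the median was 0.20, against 0.07 over all genes. In the other 19 genes the groups overlapped.

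**Figure D2:**
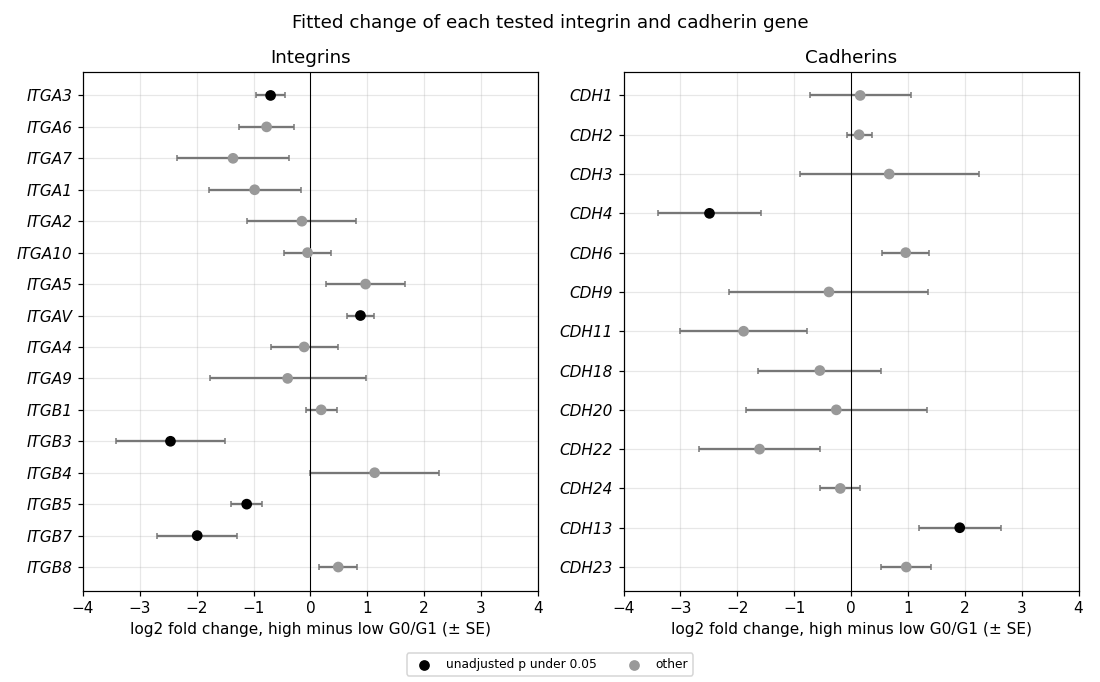
Log2 fold change, high minus low G0/G1, with its standard error from edgeR for each of the 29 tested genes; black points had an unadjusted p under 0.05. ITGAV lies at 0.88 ± 0.24 and ITGB5 at -1.12 ± 0.27, while CDH2 lies near 0 with a short bar.

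Among the alpha chains that bind the RGD motif of fibronectin and vitronectin, ITGAV was the 1 that separated the groups. ITGAV (chromosome 15, 91604666 to 91711843 in Sscrofa11.1), the alpha chain shared by the vitronectin receptors and the integrins that free latent TGF-beta, had 247 and 305 CPM in high G0/G1 libraries, against 166 and 135 CPM in low ones. The groups were separate, at 276 ± 40.5 CPM in high and 150.4 ± 22.3 CPM in low (SD, n = 2 each). The fitted level was 1.84 times as high in high G0/G1 cells, a log2 fold change of 0.88 ± 0.24 (SE, edgeR adjusted p = 0.176, unadjusted p = 0.0131). DESeq2 gave an adjusted p of 0.0468, and with 1 library left out edgeR's log2 fold change ranged from 0.72 to 1.10. DESeq2's call was kept without high replicate 1 (adjusted p = 0.0221) and lost, at adjusted p-values of 0.226, 0.348 and 0.696, when high replicate 2, low replicate 1 or low replicate 2 was left out.

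ITGA5, the fibronectin receptor's alpha chain, had 9.79 and 25.3 CPM in high libraries and 4.36 and 13.6 CPM in low ones. The groups overlapped, since low replicate 2 lay above high replicate 1, and its log2 fold change of 0.97 ± 0.70 was 0.13 to 2.03 with 1 library left out. ITGA8, which pairs with ITGB1 and binds nephronectin, stayed between 1 and 28 counts and was not tested.

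Of the beta chains that pair with ITGAV, ITGB5 and ITGB3 lay on the other side, while ITGB1 and ITGB8 overlapped between groups with means above those of low. ITGB5 (chromosome 13, 135468111 to 135587483), a partner of ITGAV in a vitronectin receptor, had 48.2 and 31.1 CPM in high libraries, against 88.3 and 84.0 CPM in low ones. Here the high libraries were the lower pair, with means of 39.7 ± 12.0 and 86.1 ± 3.05 CPM in high and low (SD, n = 2 each). The fitted level was 2.17 times as high in low G0/G1 cells, a log2 fold change of -1.12 ± 0.27 (edgeR adjusted p = 0.169, unadjusted p = 0.00886). This was the smallest unadjusted p of the 29 genes, and DESeq2's adjusted p was 0.0267. Without high replicate 1 edgeR's test called ITGB5 at -1.48 (adjusted p = 0.0403), where it called 2.41% of all genes higher and 3.92% lower. DESeq2 then gave an adjusted p of 6.5e-04, and its call was lost, at adjusted p-values of 0.164, 0.447 and 0.344, when high replicate 2, low replicate 1 or low replicate 2 was left out.

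ITGB8, the partner of ITGAV in a receptor that activates latent TGF-beta, had 31.6 and 56.8 CPM in high libraries and 29.5 and 33.6 CPM in low ones. High replicate 2 stood apart, and high replicate 1 lay between the low libraries. The log2 fold change was 0.49 ± 0.33, and 0.00 without high replicate 2. ITGB3, the beta chain of the platelet fibrinogen receptor and of a vitronectin receptor, had 0.134 and 0.807 CPM in high libraries, against 1.82 and 3.40 CPM in low ones. These are 4 and 23 counts in high and 58 and 98 in low, and the log2 fold change was -2.46 ± 0.96 (edgeR adjusted p = 0.239), with -4.24 without high replicate 2, where DESeq2 called it (adjusted p = 0.0182), and -1.69 without high replicate 1. ITGB6, a beta chain of epithelia, had 0 and 12 counts in high libraries and 0 and 1 in low ones, and was not tested.

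The levels of ITGAV and ITGB5 can also be set against each other within each library, where scaling plays no part. Such a ratio does not show which of its genes differed. The count of ITGAV over that of ITGB5 was 5.14 and 9.79 in high libraries, against 1.88 and 1.60 in low ones. Its ratio to ITGA6 was 0.435 and 1.34 in high, against 0.207 and 0.243 in low, and its ratio to ITGA3 was 7.20 and 7.32, against 3.22 and 1.88. In all 3 ratios the high libraries held the upper values. For ITGB5 and ITGA3 this was fixed in advance, because ITGAV separated the groups upwards and these genes downwards. The ratios were chosen after their values were seen, depend on transcript length in their size, and with 2 libraries against 2 an exact two-sided permutation test cannot give a p below 0.333.

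**Figure D3:**
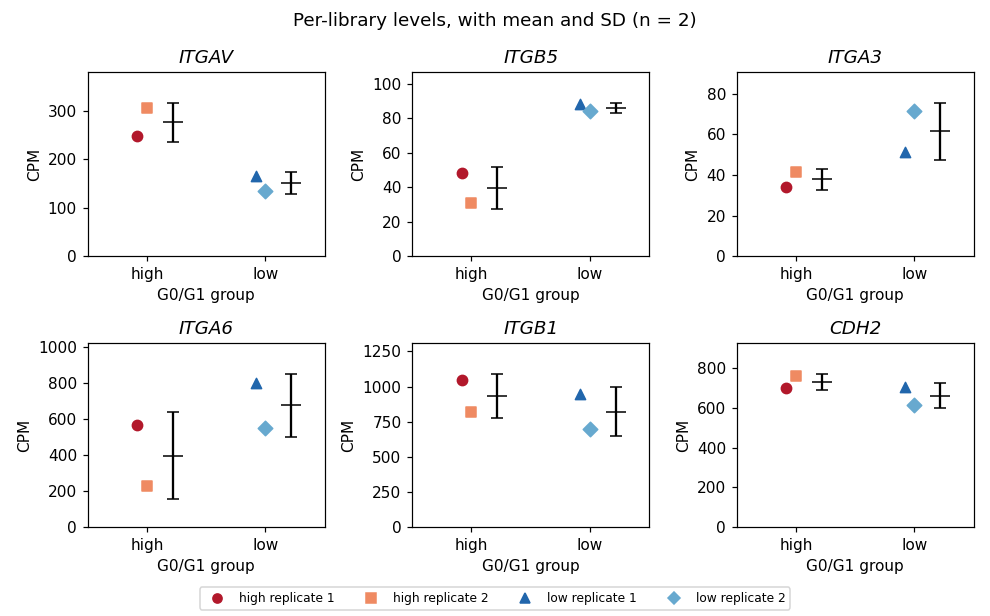
CPM on linear axes from 0 for ITGAV, ITGB5, ITGA3, ITGA6, ITGB1 and CDH2, with 1 marker per library and the mean and SD of each group (n = 2) beside them. ITGAV is higher and ITGB5 and ITGA3 are lower in both high libraries, whereas in ITGA6, ITGB1 and CDH2 the groups overlap.

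The laminin-binding alpha chains lay lower in high G0/G1 cells on average, ITGA3 without overlap. ITGA3 (chromosome 12, 26234769 to 26269327), which pairs with ITGB1 and prefers laminins of epithelial basement membranes, had 34.3 and 41.6 CPM in high libraries, against 51.6 and 71.6 CPM in low ones. Its log2 fold change was -0.70 ± 0.26 (SE, edgeR adjusted p = 0.224, unadjusted p = 0.0410), with a range of -0.85 to -0.43 when 1 library was left out, and DESeq2 gave an adjusted p of 0.203. ITGA6 (chromosome 15, 78504108 to 78591779), a laminin receptor chain that pairs with ITGB1 or ITGB4, had 569 and 228 CPM in high libraries, against 802 and 553 CPM in low ones. High replicate 2 was far below the other libraries, and high replicate 1 lay just above low replicate 2, so the groups overlapped. The means were 398 ± 241 CPM in high and 677 ± 176 CPM in low (SD, n = 2 each), and the log2 fold change was -0.77 ± 0.48 (edgeR adjusted p = 0.407).

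ITGA6 depended on which high library was used. Its log2 fold change was -1.58 without high replicate 1 (edgeR adjusted p = 0.0797, DESeq2 adjusted p = 5.0e-04) and -0.25 without high replicate 2 (edgeR adjusted p = 0.746, DESeq2 adjusted p = 0.871). High replicate 2 was also the library with the lowest sum of the proliferation list, at 251 CPM. The part of that list in the ITGA6 values was not tested. ITGA7, the laminin receptor chain of muscle, had 0.503 and 0.597 CPM in high libraries and 0.376 and 2.46 CPM in low ones.

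ITGB1 (chromosome 10, 56078393 to 56130608), the common partner of most alpha chains, had 1047 and 821 CPM in high libraries, against 945 and 697 CPM in low ones. The groups overlapped, at 934 ± 159 and 821 ± 175 CPM in high and low (SD, n = 2 each). The log2 fold change of 0.19 ± 0.27 (edgeR adjusted p = 0.730) was 0.48 without low replicate 1 and -0.01 when either high replicate 1 or low replicate 2 was left out. ITGB4, the partner of ITGA6 in hemidesmosomes, had 1.98 and 5.16 CPM in high libraries and 0.282 and 2.98 CPM in low ones. Its groups overlapped, with a log2 fold change of 1.13 ± 1.13. It was 3.66 if low replicate 2 was left out, where DESeq2 called it (adjusted p = 0.0473), and 0.28 if high replicate 2 was.

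The collagen-binding chains had few counts. ITGA10, described in cartilage, had 4.16 and 3.65 CPM in high libraries and 3.70 and 4.40 CPM in low ones, a log2 fold change of -0.05 ± 0.41. ITGA2, a collagen receptor of platelets and epithelia, had 0.335 and 2.21 CPM in high libraries, which enclosed the 1.13 and 1.70 CPM of the low ones. ITGA1, another collagen receptor chain, had 0.973 and 1.93 CPM in high libraries and 1.22 and 4.51 CPM in low ones. None of the 3 separated the groups.

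ITGA4, ITGA9 and ITGB7 bind ligands such as VCAM1, tenascin or MADCAM1. ITGA4, mostly known from leukocytes, had 1.34 and 1.54 CPM in high libraries and 2.01 and 1.11 CPM in low ones. ITGB7, a leukocyte beta chain that pairs with ITGA4, had 0.335 and 0.246 CPM in high libraries, against 0.816 and 1.53 CPM in low ones. That difference rests on 10 and 7 counts in high and 26 and 44 in low, with a log2 fold change of -1.99 ± 0.70 (edgeR adjusted p = 0.214). The 8 leukocyte markers summed to 14.4 and 12.8 CPM in high and 12.9 and 19.0 CPM in low, with none at 0 throughout and 6 of 8 highest in low replicate 2. ITGAL alone gave 13.1 and 10.4 CPM in high and 11.9 and 14.4 CPM in low, and the other 7 summed to 1.27 and 2.42 CPM in high and 1.07 and 4.68 CPM in low. Their part in the ITGB7 values was not tested.

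Several genes stood out in a single library. With at least 10 counts there and a level at least 2-fold above each other library, none of the 25 genes detected in high replicate 1 and 3 of the 26 in high replicate 2 did so, namely CDH3, CDH6 and ITGB6. In low replicate 1 it was 1 of 26, CDH4, and low replicate 2 had 6 of 29, namely ITGA1, ITGA7, ITGA8, ITGA9, ITGA11 and CDH11. Over all genes with 10 counts in the library the shares were 1.89% and 5.96% in the high replicates 1 and 2, and 1.45% and 3.74% in the low ones.

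ITGA11, a collagen receptor chain of fibroblasts, had 6 and 3 counts in high libraries and 1 and 43 in low ones. CDH11, a type II cadherin of mesenchymal cells, had 0.537 and 0.983 CPM in high libraries and 0.565 and 5.10 CPM in low ones, and ITGA9 had 2.18 and 2.18 CPM in high and 0.157 and 5.62 CPM in low. In each of these genes low replicate 2 was high and low replicate 1 was low, so the low group held both extremes or nearly so. Without low replicate 2 the log2 fold change of CDH11 was 0.44, against -1.89 ± 1.11 with all libraries, that of ITGA1 was 0.27 against -0.98 ± 0.81, that of ITGA7 was 0.56 against -1.36 ± 0.99, and that of ITGA9 was 3.77 against -0.40 ± 1.37.

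Most markers of theca and stroma were highest in the same library. The 11 markers summed to 115 and 148 CPM in high libraries and to 54.5 and 1636 CPM in low ones, and 9 of 11 were highest in low replicate 2. MYH11 and PDGFRA were instead highest in high replicate 2, at 5.37 and 18.6 CPM. The collagen genes COL1A1, COL1A2 and COL3A1 gave most of the sum of low replicate 2, at 390.2, 454 and 478 CPM. CYP17A1, the androgen-producing enzyme of theca cells, had 0.772 and 1.02 CPM in high and 0.125 and 51.5 CPM in low, and COL3A1, a fibrillar collagen, had 24.8 and 36.9 CPM in high and 6.56 and 478 CPM in low. None of the 11 was at 0 in all libraries. The 7 endothelial markers summed to 17.1 and 48.2 CPM in high and 7.28 and 56.5 CPM in low, with 5 of 7 highest in low replicate 2 and none at 0 in all libraries. KDR alone gave 1.98 and 29.5 CPM of these sums in high and 2.92 and 10.5 CPM in low, so it made up most of that of high replicate 2. Of 5 oocyte markers measured, GDF9 had 8.69 and 9.34 CPM in high and 6.40 and 11.5 CPM in low, while the other 4 had at most 5 counts in a library and ZP2 was at 0 in all libraries. The part of these cells in the levels of the 6 genes was not tested.

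**Figure D4:**
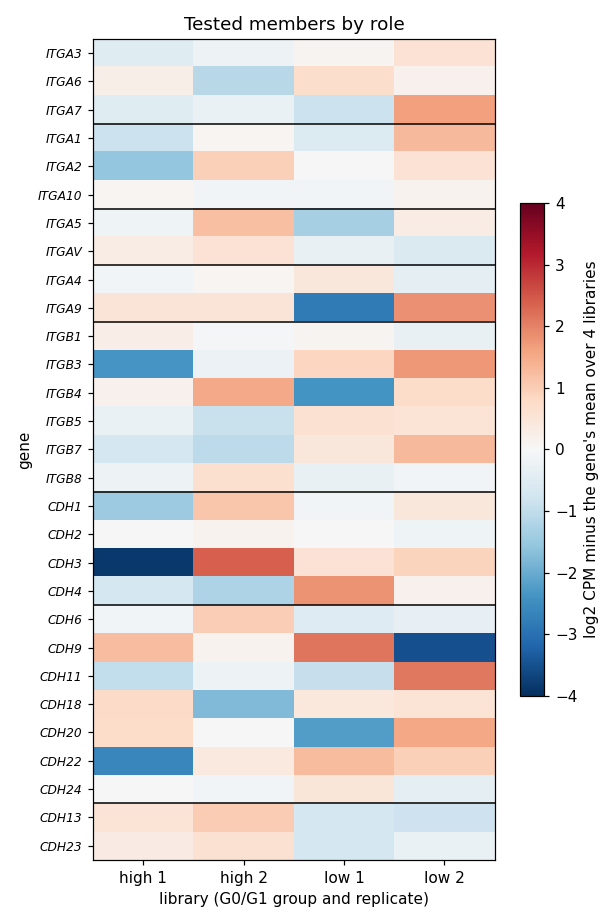
Log2 CPM of each tested gene minus its mean over the 4 libraries, in rows grouped by role and columns by library, red above and blue below the mean. In low replicate 2 CDH11 and ITGA9 have the highest values, 2.11 and 1.84, CDH3 runs from -3.86 in high replicate 1 to 2.39 in high replicate 2, and CDH2 stays within 0.17 of its mean.

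Among the type I cadherins, CDH2 was nearly level across the libraries. CDH2 (chromosome 6, 112396713 to 112629073), which encodes N-cadherin, had 701 and 760.0 CPM in high libraries, against 705 and 616 CPM in low ones. The groups overlapped at 730.4 ± 41.9 and 661 ± 62.4 CPM in high and low (SD, n = 2 each). Its log2 fold change was 0.14 ± 0.22 (SE, edgeR adjusted p = 0.737), with a range of 0.07 to 0.31 when 1 library was left out, and DESeq2 gave an adjusted p of 0.788.

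CDH1 and CDH3 varied within the high group more than between groups. CDH1 (chromosome 6, 18075487 to 18155986), which encodes E-cadherin, had 0.973 and 6.04 CPM in high libraries, against 2.54 and 3.75 CPM in low ones. CDH3 (chromosome 6, 18190971 to 18236184), which encodes P-cadherin, had 0.235 and 23.0 CPM in high libraries, against 6.43 and 8.11 CPM in low ones. In both genes high replicate 1 was the lowest library and high replicate 2 the highest, with the low libraries between them in the same order. The 2 genes lie 34984 bases apart with 0 annotated genes wholly between them. ITGA2, on chromosome 16, had the same order of libraries, and the part of position in these values was not tested.

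The sign of CDH1 and CDH3 followed the library used. CDH1 had a log2 fold change of 0.16 ± 0.89 (edgeR adjusted p = 0.937), which was 0.93 without high replicate 1 and -1.69 without high replicate 2. CDH3 had 0.67 ± 1.57 (edgeR adjusted p = 0.836), which was 1.65 without high replicate 1 and -4.93 without high replicate 2. DESeq2 called it in opposite directions in these 2 fits, with adjusted p-values of 0.00786 and 2.1e-06. In counts, CDH3 had 7 and 654 in high and 205 and 234 in low. Of the markers of the ovarian surface epithelium, EPCAM stood at 0.0671 and 0.456 CPM in high and 0.0941 and 0.694 CPM in low. KRT19 was at 0 in high replicate 1 and low replicate 1 and stood at 0.878 CPM in high replicate 2 and 1.28 CPM in low replicate 2. UPK3B went another way, with 1 and 0 counts in high and 7 and 0 in low, so it was highest in low replicate 1. The 3 measured markers summed to 0.101 and 1.33 CPM in high and 0.314 and 1.98 CPM in low, and none was at 0 in all libraries. Their part in the CDH1 and CDH3 values was not tested.

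CDH4, or R-cadherin, had 0.235 and 0.140 CPM in high libraries, against 1.66 and 0.485 CPM in low ones, a log2 fold change of -2.49 ± 0.90 (edgeR adjusted p = 0.219). These are 7 and 4 counts in high and 53 and 14 in low, and most of the low group's counts came from low replicate 1. Without that library the log2 fold change was -1.29. CDH15, the cadherin of muscle, had 1 to 4 counts per library.

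Of the type II cadherins CDH6 separated the groups upwards and CDH22 downwards. CDH6, first described in kidney, had 16.6 and 35.1 CPM in high libraries, against 12.5 and 14.1 CPM in low ones. High replicate 2 carried most of the difference, and the log2 fold change of 0.96 ± 0.41 (edgeR adjusted p = 0.268) was 0.32 without it and 1.39 without high replicate 1, where DESeq2 called it (adjusted p = 0.00935). CDH22, a cadherin of the brain and pituitary, had 0.168 and 1.83 CPM in high libraries, against 3.39 and 2.70 CPM in low ones. For CDH22 the log2 fold change was -1.61 ± 1.07 (edgeR adjusted p = 0.428), with -0.75 without high replicate 1 and -4.15 without high replicate 2, where DESeq2 called it (adjusted p = 0.00787).

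CDH24 had 17.9 and 16.5 CPM in high libraries, enclosed by 25.2 and 14.0 CPM in low ones. CDH9 reached 1.74 and 0.772 CPM in high and 3.29 CPM in low replicate 1, with a count of 0 in low replicate 2. CDH18 had 22 and 2 counts in high and 18 and 18 in low, and CDH20 had 14 and 7 in high and 0 and 25 in low. CDH8 had 2 and 0 counts in high and 12 and 7 in low and did not pass the filter. Leaving out 1 library turned the sign of the fitted difference in CDH9, CDH18, CDH20 and CDH24.

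The 2 cadherins tested outside these types, CDH23 and CDH13, lay higher in both high libraries. CDH13 passed the filter through the high libraries alone, so a higher level there was built into its being tested. CDH23, known from the tip links of inner-ear hair cells, had 4.63 and 5.65 CPM in high libraries, against 2.23 and 3.02 CPM in low ones. Its log2 fold change was 0.97 ± 0.44 (edgeR adjusted p = 0.281), with a range of 0.82 to 1.22 when 1 library was left out. CDH13, or T-cadherin, which is anchored by lipid and lacks a tail for catenins, had 14 and 19 counts in high libraries and 5 and 4 in low ones. That is 0.470 and 0.667 CPM in high against 0.157 and 0.139 CPM in low, with a log2 fold change of 1.91 ± 0.72 (edgeR adjusted p = 0.231). CDH16, a kidney cadherin, stayed below 10 counts throughout.

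The matrix proteins that these integrins bind were read from lists of laminins and nidogens, collagens, and RGD and other ligands. In each of the lists below edgeR's test called 0 genes in either direction at an adjusted p under 0.05. Of all genes tested 49.4% had a log2 fold change above 0 and 50.6% below it. At edgeR's unadjusted p under 0.05 the whole table had 9.92% higher and 10.8% lower. DESeq2 called 5.45% of all genes with an adjusted p higher and 5.14% lower. Of 13 laminin chains and nidogens 4 were higher and 9 lower, and the median log2 fold change was -0.40. Without low replicate 2, in which 8 of the 13 and most stromal markers were highest, 8 were higher and 5 lower, with a median of 0.23. LAMA1, the alpha 1 chain of laminin, had 930.0 and 1495 CPM in high and 557 and 603 CPM in low, while LAMC1, the common gamma chain, had 372 and 302 CPM in high and 583 and 510.2 CPM in low. LAMC3 (-2.21 ± 0.53) and the nidogen gene NID1 (-2.73 ± 0.91) also lay lower, and NID1 stood at 34.3 CPM in low replicate 2 against 2.63 to 5.18 CPM elsewhere. At an unadjusted p under 0.05 there were 1 higher and 3 lower, and DESeq2 called 1 higher and 2 lower.

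Of 12 collagens tested 4 were higher and 8 lower, with a median log2 fold change of -1.06. That direction turned without low replicate 2, where 10 were higher and 2 lower with a median of 1.15. The type IV chains of the basal lamina lay on either side. COL4A2 had 3019 and 3302 CPM in high and 1329 and 1456 CPM in low (log2 fold change 1.18 ± 0.24), COL4A1 had a log2 fold change of 0.89 ± 0.24 and COL4A4 one of -0.72 ± 0.25. COL1A2, at 23.7 and 25.3 CPM in high and 9.79 and 454 CPM in low, was highest in low replicate 2, as were 9 of the 11 stromal markers, a list it also belongs to. At an unadjusted p under 0.05 there were 2 higher and 1 lower, and DESeq2 called 2 higher and 0 lower. Of the other ligands 4 of 16 tested were higher, with a median of -0.53, and 7 of 16 with a median of -0.20 when high replicate 1 was left out or -0.33 when low replicate 2 was. They included ADAM9, a membrane protease that binds integrins (1.09 ± 0.30), VTN, which encodes vitronectin (1.13 ± 0.47), FBN1, or fibrillin (-0.93 ± 0.30), and EDIL3, a ligand of ITGAV integrins (-1.15 ± 0.44). At an unadjusted p under 0.05 there were 1 higher and 2 lower, and DESeq2 called 1 higher and 0 lower. For both lists the shares over all genes were 9.92% and 10.8% at that p, and 5.45% and 5.14% by DESeq2.

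Inside the cell, 7 of 24 tested integrin adaptors were higher and 17 lower, with a median of -0.24. VCL, which encodes vinculin, had 182 and 212 CPM in high and 131 and 117 CPM in low, a log2 fold change of 0.67 ± 0.21. PARVB, a parvin that joins integrin-linked kinase to actin, had 8.55 and 5.83 CPM in high and 19.5 and 19.7 CPM in low (-1.45 ± 0.32), and the actin crosslinker gene ACTN1 (-1.06 ± 0.39) and the tensin gene TNS1 (-0.52 ± 0.20) lay lower too. The unadjusted p was under 0.05 for 1 higher and 3 lower, against 9.92% and 10.8% of all genes. DESeq2 called 0 higher and 1 lower, against 5.45% and 5.14%.

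The 17 focal adhesion kinases and their partners were even, 9 higher and 8 lower, with a median of 0.02 that lay between -0.02 and 0.17 with 1 library left out. FYN, a Src-family kinase, had 25.5 and 31.7 CPM in high and 8.91 and 7.84 CPM in low. Its log2 fold change was 1.77 ± 0.27 (edgeR adjusted p = 0.129, DESeq2 adjusted p = 2.5e-05), with a range of 1.61 to 1.93 when 1 library was left out. YES1, of the same family, had 0.60 ± 0.23, CSK, the kinase that restrains the family, -0.49 ± 0.20, and the Arf regulator gene ASAP1 0.51 ± 0.34. The unadjusted p was under 0.05 for 2 higher and 0 lower, against 9.92% and 10.8% of all genes. DESeq2 called 1 higher and 0 lower, against 5.45% and 5.14%. Of 8 tetraspanins tested, membrane proteins that associate with integrins, 0 reached an unadjusted p under 0.05 and DESeq2 made 0 calls, with a median of -0.07 that became 0.07 when high replicate 1 was left out and 0.04 when low replicate 2 was. CD82 had a log2 fold change of -0.51 ± 0.25, TSPAN4 of -0.25 ± 0.40, CD9 of 0.28 ± 0.98 and CD151 of 0.10 ± 0.24.

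**Figure D5:**
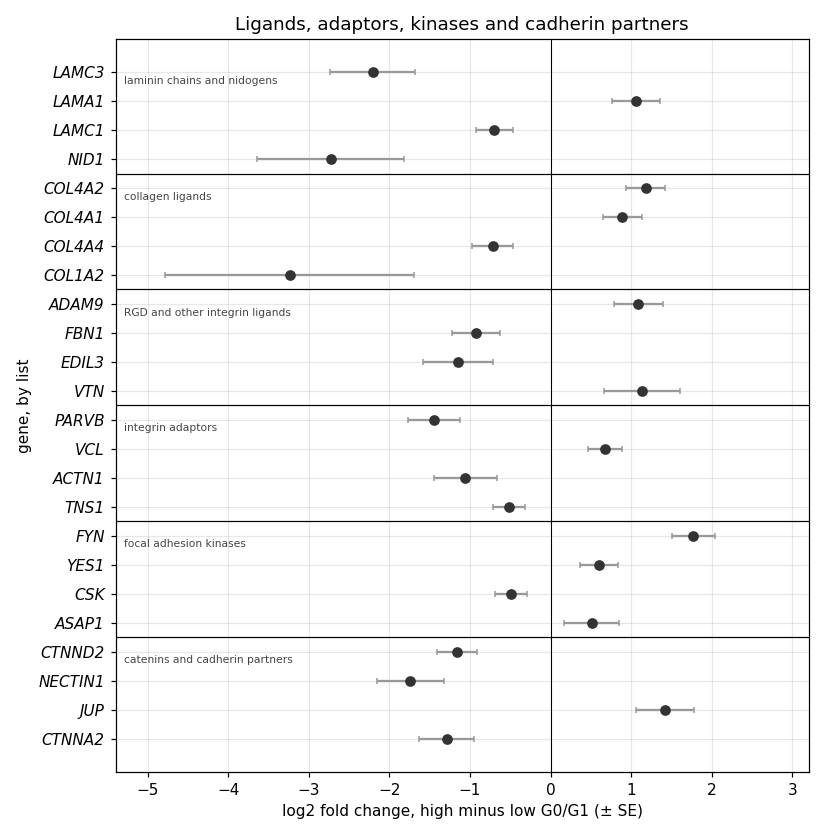
Log2 fold change, high minus low G0/G1, with its standard error for up to 4 genes per list of ligands, adaptors, kinases and cadherin partners, chosen by smallest unadjusted p. FYN at 1.77 and JUP at 1.42 lie to the right, NECTIN1 at -1.74 and CTNNA2 at -1.29 to the left, and COL1A2 has the longest bar at ± 1.55.

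On the cadherin side 11 of 20 tested catenins and partners were higher and 9 lower, with a median of 0.11. JUP, which encodes plakoglobin, a catenin of adherens junctions and desmosomes, had 234 and 447 CPM in high and 117 and 137 CPM in low, a log2 fold change of 1.42 ± 0.36 (edgeR adjusted p = 0.171, DESeq2 adjusted p = 0.00988). Those on the lower side were CTNND2, or delta-catenin (-1.16 ± 0.25), CTNNA2, an alpha-catenin best known from neurons (-1.29 ± 0.34), and the adhesion molecule gene NECTIN1 (-1.74 ± 0.42). NECTIN1 had 58.9 and 31.7 CPM in high and 189.9 and 112 CPM in low. At an unadjusted p under 0.05 there were 2 higher and 4 lower, against 9.92% and 10.8% of all genes. DESeq2 called 1 higher and 3 lower, against 5.45% and 5.14%. CTNNB1, the gene of beta-catenin, is given for its role beside CDH2 and had 701 and 687 CPM in high and 709.7 and 672 CPM in low, a log2 fold change of 0.01 ± 0.21. Of 4 desmosomal cadherins tested 3 were higher, with a median of 0.37 that ranged from -0.36 without high replicate 2 to 1.16 without low replicate 2, among them DSC2 (1.03 ± 0.52) and DSG2 (0.37 ± 0.27). By edgeR 0 of the 4 reached an unadjusted p under 0.05, DESeq2 made 0 calls, and DSC1, DSG1 and DSG4 had a count of 0 in every library.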

How the data were processed

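The values are raw read counts by gene symbol in a single table the authors deposited, whose 4 columns were matched to samples by title. Total RNA was extracted with Trizol and used at an RNA integrity number above 8, per the labels' protocols. The submitters' processing notes name HISAT2 and the Sscrofa11.1 build. How reads were counted, on which annotation and with which strand setting is not given in the sources used here, and reads of related or antisense genes may have been divided between rows. Symbols matched the RefSeq annotation of Sscrofa11.1 for 29862 of 29884 rows, including all 40 members, and coordinates come from it.

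The contrast of high with low was fitted on all 4 libraries in R 4.3.3 by edgeR 4.0.16, using filterByExpr (minimum count 10, minimum total 15), TMM, glmQLFit and glmQLFTest, with Benjamini-Hochberg adjustment over 14352 genes and a threshold of 0.05. The biological coefficient of variation was 0.371. Standard errors were taken as the size of the log2 fold change divided by the square root of F. A count of 0 was read as at most 3 counts, which covers counting error only. DESeq2 1.42.0, other scalings, no filter and leaving out each library were the alternatives, and the test was checked on simulated counts. DESeq2 with each library left out was added after seeing the data. DESeq2 left the adjusted p of some sparse genes undefined, and these were not counted as calls.

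Members and gene lists were chosen with earlier results of these data known. Per-library values are given for ITGA6, ITGB1, ITGAV, CDH1 and CDH2, for each other tested member with an average log2 CPM of at least 1 and an unadjusted p under 0.05, and in brief for the rest. Up to 4 genes per partner list are named, by smallest p at that level. CTNNB1 and the marker genes named with values were chosen for their roles. Replicate numbers follow the order of listing and pair nothing.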

Additional observations from a re-analysis of the deposited data

How the results depend on the processing

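With all 4 libraries, edgeR called 0 integrins or cadherins in either direction under TMM, DESeq2's size factors, library totals alone and no filter. DESeq2's own test called 1 higher and 1 lower. With 1 library left out, edgeR called 0 higher throughout and 0 to 1 lower. Over the whole table DESeq2 called 754 genes higher and 711 lower, no filter gave 2 and 3, and leaving out 1 library gave 0 to 363 higher and 0 to 591 lower, the upper values without high replicate 1. Of the 29 tested members 15 kept their sign in every leave-one-out fit and 14 did not. The other scalings, no filter and DESeq2 turned the sign of none of them. Leaving out 1 library gave log2 fold changes of -2.09 to 0.56 for ITGA7, -1.56 to 0.27 for ITGA1, -2.06 to 0.64 for ITGA2, -0.16 to 0.09 for ITGA10, -0.46 to 0.44 for ITGA4, -1.30 to 3.77 for ITGA9, -0.01 to 0.48 for ITGB1, -1.69 to 0.93 for CDH1, -4.93 to 1.65 for CDH3, -1.38 to 8.21 for CDH9, -2.67 to 0.44 for CDH11, -3.01 to 0.31 for CDH18, -1.21 to 6.44 for CDH20 and -0.54 to 0.36 for CDH24. The values of 8.21 and 6.44 are fitted against a lone low library at 0 and depend on the prior count. The cause of these reversals was not tested. A group left with 1 library is assumed to vary like the other. No paired analysis was made, because the labels carry no replicate numbers. The titles hold a code for each library, and its meaning is not given. Depth limits ITGB3, ITGB7, CDH4 and CDH13, whose differences rest on few counts.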
